A study of Mus musculus with 12 samples.

Results

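The response of TSC2-null mouse fibroblasts to rapamycin was measured on 6 of the 12 arrays of the series, those whose labels give a treatment with rapamycin or with its vehicle. TSC2-/- mouse embryonic fibroblasts (MEFs) were grown in DMEM with 10% CCS, the medium was changed when treatment began, and the cells received DMSO, the vehicle (3 arrays), or 20 nM rapamycin (3 arrays) for 14 h. Both groups are TSC2-/-, and cells with intact Tsc2 were not compared here, so every difference below is a response within cells that lack the gene. The sources used here do not give the genetic background of the line, its other alleles or the number of lines or embryos behind it. The series design text calls the arrays of a condition biological triplicates without naming separate cultures, so p-values measure the spread between these arrays. The other 6 arrays, of cells infected with adenovirus, were normalized by the authors apart from these and were not used.

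mTOR is a kinase that acts in separate complexes. mTORC1, which holds the subunit Raptor, is switched on by the GTPase Rheb at the lysosome when growth factors and amino acids are present, and the TSC1-TSC2 complex turns Rheb off; without TSC2 the brake is lost and mTORC1 stays active. Active mTORC1 drives translation through S6 kinases and 4E-BP proteins, promotes the synthesis of ribosomes, nucleotides, lipids and amino acids, in part through the transcription factors ATF4, HIF-1, SREBP and Myc, and holds back autophagy and lysosome formation. Rapamycin binds FKBP12 and then blocks part of the output of mTORC1. The series title places the study on the control of mitochondrial genes by mTOR through YY1, a zinc finger factor, and the coactivator PGC-1alpha.

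Values are given as the authors' intensities, on a linear scale, and as log2 changes (rapamycin minus vehicle, with limma's moderated standard error, SE) for the brightest probe set of each gene; a rise or fall is stated where the Benjamini-Hochberg adjusted p over 45037 probe sets was under 0.05, with n = 3 arrays per group throughout. Median intensity was 77.5 to 79.2 on the 6 arrays. Across probe sets the arrays correlated (Pearson's r of log2 values, 15 pairs) at 0.9977 to 0.9988 within a group and at 0.992 to 0.9935 between groups. Of 13 fibroblast markers 11 had a mean log2 value of 6 or more, the level taken here as above background, and 5 rose and 0 fell (3 and 4 with the bacterial controls as the scale); sums of different probe sets do not rank cell types, so the sums of each list are given by group. The fibroblast sum ran from 56505 to 57805 with vehicle and from 58624 to 63074 with rapamycin. Of the other cell types, 5 of 12 macrophage, 4 of 11 endothelial, 9 of 12 epithelial, 6 of 12 muscle, 7 of 11 neural and 5 of 10 fat cell markers reached that level. Fat cell markers summed to 4898 to 5009 with vehicle and 3994 to 4136 with rapamycin, without overlap, with 0 of 10 raised and 2 lowered (7 with the bacterial controls as the scale), Lpl (-0.31), which made up most of the sum, and Pparg (-0.25). Epithelial markers summed to 2951 to 3022 and 3021 to 3155, with 4 of 12 raised and 1 lowered (2 and 2 with the bacterial controls as the scale), and macrophage markers to 1050 to 1094 and 1114 to 1141, with 2 raised. The endothelial sums were 703 to 743 and 704 to 724, the muscle sums 959 to 1018 and 954 to 960, and the neural sums 1624 to 1728 and 1575 to 1655. The part of these markers in the results was not tested. Control transcripts of bacterial and phage genes (the bio and cre probe sets, called bacterial controls here) do not come from the cells. They read higher on the rapamycin arrays, at a mean log2 value of 10.72 ± 0.10 (SD, n = 3) against 10.53 ± 0.06 (SD, n = 3), without overlap (two-sided exact permutation p = 0.1, the smallest that 3 against 3 arrays allow). These controls were read after the authors' normalization, and whether they track the amount of RNA in the samples was not tested. Of the controls of RNA quality, the log2 ratio of the 3′ to the 5′ probe set of Gapdh was -0.24 ± 0.02 with vehicle and -0.29 ± 0.02 with rapamycin (SD, n = 3), without overlap, and that of beta-actin was 0.39 in both; the part of these differences in the results was not tested.

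Rapamycin changed the level of many transcripts, in both directions, and the changes were mostly modest in size. Of 45037 probe sets, 5168 rose (11.5%) and 6301 fell (14.0%); of 18193 genes, 2082 were raised (11.4%) and 3262 lowered (17.9%). Fewer reached 1.5-fold, 212 of them raised (1.17%) and 463 lowered (2.54%), and 27 and 43 genes reached 2-fold. All rapamycin arrays lay above all vehicle arrays at 8107 probe sets (18.0%) and below them at 8946 (19.9%). Of the 12580 genes with a mean log2 value of 6 or more, 15.1% rose and 24.5% fell. Falls were commoner among well expressed genes: at a mean log2 value of 8 to 10, 17.5% of 4779 genes rose and 34.1% fell, and at 10 or more 19.2% of 1775 rose and 35.4% fell, against 3.24% in each direction among 5613 genes under 6. Rises made up 45.1% of the called probe sets in the authors' normalization and 7.24% when the arrays were scaled on the bacterial controls, which lowered every change, with a median of -0.19 on the log2 scale over all probe sets; changes below are relative to the authors' normalization.

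The largest falls by the brightest probe set were those of Ak4, Bnip3, Cdc6, Cth, Ddit4, Dkc1, Egln3, Psat1, Psph, Rad51ap1, Ska1, Slc16a3, Snhg3, Srm and Tmem97, and the largest rises those of Akap5, Bbip1, Bckdha, Calcoco1, Ccn2, Crebrf, Ctla2a, Il6, Klhl24, Lcn2, Sbk1, Tcp11l2, Usp11, Vnn1 and Zfp799. Ddit4 encodes REDD1, a stress-induced inhibitor of mTORC1 that acts through TSC2. Its intensities were 1397, 1316 and 1251 with vehicle and 352, 408 and 324 with rapamycin, a 3.67-fold fall (log2 change -1.88, SE 0.08, adjusted p = 2.1e-08). The lowest vehicle array stood above the highest rapamycin array by a wide margin. Lcn2, a secreted siderophore-binding protein, read 93.4, 92.4 and 116 with vehicle and 365, 390.4 and 349 with rapamycin (log2 change 1.88, SE 0.08, adjusted p = 2.8e-08). Crebrf, a regulator of CREB3 factors, read 136, 121 and 136 with vehicle and 399, 453 and 399 with rapamycin, and all 3 of its probe sets rose (log2 change of the brightest 1.67). Neither gene's groups overlapped. Vnn1, a pantetheinase that releases cysteamine, rose by 1.41 (SE 0.05), and Klhl24, a ubiquitin ligase adaptor, by 1.68 (SE 0.06), with all 5 of its probe sets raised. Probe sets disagreed for some of these genes: 1 of 2 rose for Calcoco1, 3 of 5 fell for Ak4, and for Bbip1 1 of 3 rose and 1 fell.

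**Figure D1:**
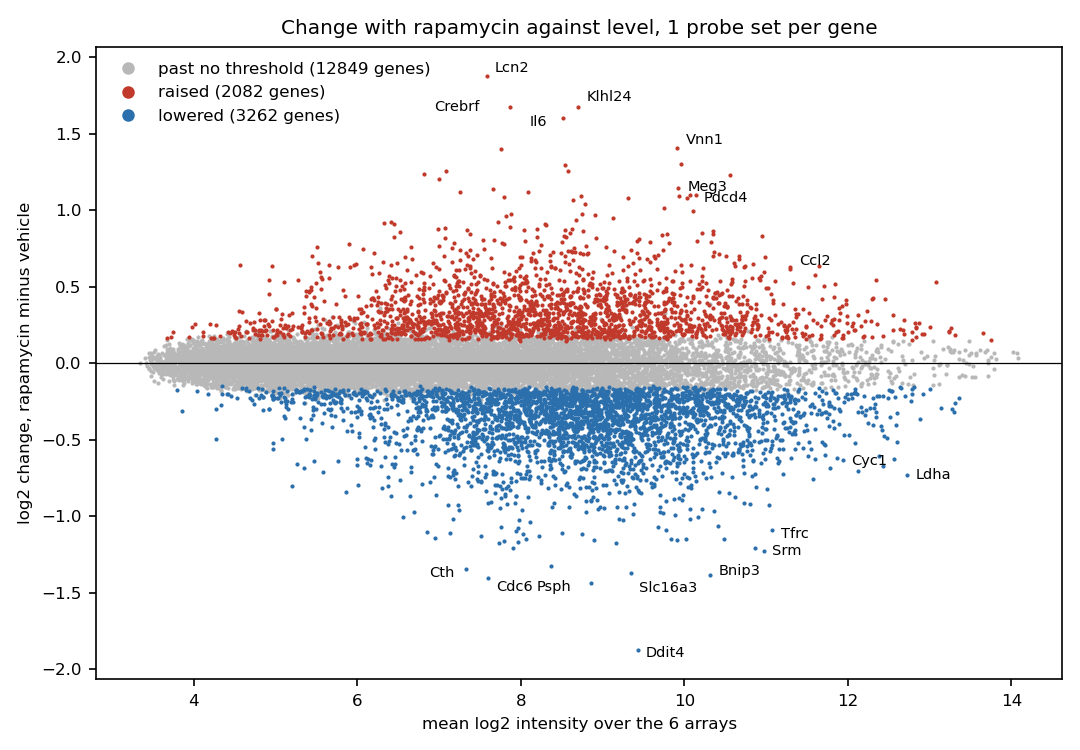
Each point is 1 of 18193 genes by its brightest probe set; the horizontal axis is the mean log2 intensity over the 6 arrays and the vertical axis the log2 change, rapamycin minus vehicle. The 2082 raised genes are red, the 3262 lowered genes blue and the rest grey; Lcn2 at 1.88 and Ddit4 at -1.88 lie farthest out, and calls are sparse among the dimmest genes.

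Single genes of the target pathway were called in both directions. Of 11 measured genes of the mTOR complexes 2 rose (18.2%) and 4 fell (36.4%). Over all genes 11.4% rose and 17.9% fell, and over those with a mean log2 value of 6 or more 15.1% and 24.5%. With scaling on the bacterial controls 0 of the 11 rose and 7 fell, and the calls of Rictor (0.18) and Prr5l (0.083) were lost. Rictor, the defining subunit of mTORC2, rose by 0.37 (SE 0.07, adjusted p = 0.0014) and Prr5l, an mTORC2-associated protein, by 0.27, while Rptor, which encodes Raptor, fell by 0.22 (1 of 3 probe sets), as did Mlst8, a subunit of both complexes (-0.22). Rptor lost its call without rapamycin replicate 1 (-0.20) or vehicle replicate 3 (-0.18), and with quantile normalization over the 6 arrays (-0.15). Rictor intensities were 246, 269 and 227 with vehicle and 297, 335 and 326 with rapamycin, without overlap, although 2 of its 5 probe sets rose and the other 3 passed in neither direction. Mtor did not pass by its brightest probe set (0.14, 95% interval 0.02 to 0.26), while 1 of its 3 probe sets fell. Without vehicle replicate 3 the balance of this list turned to 1 more member raised than lowered.

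Among 32 genes of the TSC complex, Rheb and amino acid sensing, 4 rose (12.5%) and 12 fell (37.5%). Among genes with a mean log2 value of 6 or more, 15.1% rose and 24.5% fell. The counts of the list were 1 and 19 with scaling on the bacterial controls and 7 and 7 with quantile normalization. Tsc2, the deleted gene, is measured by 1 probe set, which read 248, 259 and 278 with vehicle and 182, 217 and 196 with rapamycin, without overlap (log2 change -0.40, SE 0.07, adjusted p = 7.9e-04). This gene was added after its values were seen; its signal was present in both groups, and whether the probes lie in the deleted part was not tested, so the probe set checks nothing about the genotype. Besides Ddit4 and Tsc2, the falls were led by the sestrins, stress proteins that dampen mTORC1 by acting on GATOR2: Sesn3 fell by 0.68 and Sesn2 by 0.45. Sesn3 read 414, 519 and 520.5 with vehicle and 294, 303 and 308 with rapamycin. Its groups did not overlap, and both of its probe sets fell. Seh1l, a GATOR2 subunit that also belongs to the nuclear pore, fell by 0.41. Lamtor2, part of the Ragulator scaffold that holds Rag GTPases on the lysosome, rose by 0.41 (SE 0.06, adjusted p = 1.4e-04), with 1 of 2 probe sets raised.

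Direct effectors of mTORC1 had 6 of 21 raised and 8 lowered (2 and 12 with scaling on the bacterial controls, where the calls of Maf1 (0.12) and Lpin1 (0.15) were lost). Inhibitors of translation and growth were among the rises: Pdcd4, which blocks the helicase eIF4A and is degraded after S6 kinase acts on it, read 753, 747 and 811 with vehicle and 1536, 1822 and 1601 with rapamycin. That is a 2.14-fold rise (log2 change 1.10, SE 0.07, adjusted p = 3.2e-07), with every rapamycin array above every vehicle array. The autophagy kinase Ulk2 rose by 0.85 with all 4 probe sets raised, Maf1, a repressor of RNA polymerase III, by 0.31, and the phosphatidate phosphatase Lpin1 by 0.34. The falls included the translation factor gene Eif4e and also genes that can hold back translation, Larp1, Eif4ebp2 and Eef2k. Eif4e, the cap-binding protein, read 2772, 2768 and 2798 with vehicle and 1672, 1887 and 1870 with rapamycin (log2 change -0.62, SE 0.06, adjusted p = 6.1e-06), Larp1, which binds mRNAs of the translation machinery, fell by 0.50, Eif4ebp2, which holds back cap-dependent translation, by 0.34 (1 of 5 probe sets), and the elongation factor kinase Eef2k by 0.26. Of the transcription factors downstream, Atf4 fell by 0.56 and Srebf1 by 0.27, and Hif1a (0.08, 95% interval -0.03 to 0.20), Tfeb (-0.16) and Tfe3 (-0.09) passed in neither direction.

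Amino acid metabolism fell broadly, and the serine pathway had the lowest median of its lists. Of 22 serine and one-carbon enzymes 15 fell and 1 rose (median log2 change -0.48, against -0.01 over all genes), and 9 fell at least 1.5-fold. Psph, the phosphatase of the last step of serine synthesis, read 774, 764 and 747 with vehicle and 268, 293 and 284 with rapamycin, a 2.71-fold fall (log2 change -1.44, SE 0.06, adjusted p = 1.0e-08). Psat1, the aminotransferase before it, read 2782, 2910 and 2782 with vehicle and 1169, 1286 and 1217 with rapamycin (log2 change -1.21). For both the groups stood well apart. The mitochondrial folate enzymes Shmt2, Mthfd2 and Mthfd1l, which turn serine into formate, fell by 1.15, 0.95 and 0.95, and every probe set of Shmt2 (4) and Mthfd2 (2) fell. Mthfd2l, an isozyme of Mthfd2, is the member called as raised (0.23), but 3 of its 4 probe sets fell, and the call was lost without rapamycin replicate 3 or vehicle replicate 1 (0.18 in both) and with scaling on the bacterial controls (0.039).

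ATF4 is a factor that is made when eIF2 is phosphorylated or mTORC1 is active, and it switches on amino acid synthesis and uptake. Of 23 genes of its circuit 17 fell and 0 rose (median -0.41). Atf4 itself read 3666, 3624 and 3586 with vehicle and 2431, 2561 and 2380 with rapamycin (log2 change -0.56, SE 0.05, adjusted p = 6.0e-06), with 2 of 3 probe sets lowered. Its relative Atf5 fell by 0.61, the pseudokinase Trib3 by 0.86, the lipoprotein receptor Vldlr by 0.69 and Ddit3, which encodes CHOP, by 0.64 (1 of 2 probe sets). Asns, asparagine synthetase, read 2378, 2434 and 2595 with vehicle and 1519, 1637 and 1557 with rapamycin. Each of these genes had all rapamycin arrays below all vehicle arrays. Of 13 enzymes that make other amino acids 9 fell and 0 rose, among them the proline enzyme Aldh18a1 (-0.45) and the aspartate aminotransferases Got1 (-0.46) and Got2 (-0.40).

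Sulphur metabolism moved with them, as 15 of 23 genes of cysteine and glutathione metabolism fell and 0 rose. Cth, which makes cysteine from cystathionine, read 241, 281 and 251 with vehicle and 91.2, 111 and 103 with rapamycin, a 2.54-fold fall (log2 change -1.34, SE 0.08, adjusted p = 1.7e-07). The glutathione-degrading enzymes Chac2 and Chac1 fell by 0.79 and 0.56, Hmox1, heme oxygenase, by 0.58, and Gclc, the catalytic subunit of the first step of glutathione synthesis, by 0.55. Of 13 polyamine genes 6 fell and 2 rose (8 and 0 with scaling on the bacterial controls). Srm, spermidine synthase, read 3167, 3087 and 2982 with vehicle and 1234, 1411 and 1307 with rapamycin, a 2.34-fold fall with no overlap, and Azin1, the antizyme inhibitor, fell by 0.40, whereas Oaz2, an antizyme that limits polyamines, rose by 0.25, a call lost with that scaling (0.060).

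Amino acid transporters had more falls than rises, and branched-chain amino acid enzymes were called in both directions. Of 27 amino acid transporters 10 fell and 2 rose (17 and 1 with scaling on the bacterial controls). Slc7a5, the light chain of the leucine exchanger LAT1, read 1349, 1312 and 1418 with vehicle and 551, 689.8 and 611 with rapamycin (log2 change -1.15, SE 0.07, adjusted p = 4.3e-07), and its heavy chain Slc3a2 fell by 0.58, the glutamine carrier Slc1a5 by 0.55 and the cationic carrier Slc7a3 by 0.73. Slc7a2, another cationic amino acid carrier, went the other way: it read 306, 288 and 271 with vehicle and 543, 533 and 487 with rapamycin, and all 4 of its probe sets rose. Of 23 genes of branched-chain amino acid breakdown 7 rose and 6 fell; the balance turned to 2 raised and 12 lowered with scaling on the bacterial controls, and falls led by 1 without rapamycin replicate 2. Bcat1, the cytosolic aminotransferase that starts the pathway, read 1526, 1545 and 1532 with vehicle and 759, 800.4 and 718 with rapamycin. Of the subunits of the dehydrogenase complex that follows, Bckdha read 245, 234 and 263 with vehicle and 547, 637 and 592 with rapamycin, a 2.39-fold rise, while its partner Bckdhb fell by 0.58 (SE 0.06) and Dbt, the core subunit, by 0.80 (SE 0.10). Each of these subunits was measured by 1 probe set, and none of the groups overlapped. Aldh6a1, a mitochondrial enzyme of valine breakdown, rose by 0.98.

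Promoter sequences were set beside these genes because ATF4 is known to act through a short composite element. The 250 bases before the first listed start were searched on both strands in RefSeq promoters (GRCm38.p6), which 14368 of the 18193 genes have. CARE, the ATF4 element, was searched as TGATGNAA. It was found in 4 of 20 (20.0%) promoters of the ATF4 circuit and 3 of 28 (10.7%) of the tRNA synthetases. The counts were 2 of 11 (18.2%) for other amino acid synthesis, 2 of 17 (11.8%) for cysteine and glutathione and 2 of 20 (10.0%) for transporters. Of 20 promoters of serine and one-carbon enzymes, 0 held a match. Over all measured genes the share was 2.42%, and over genes lowered at least 1.5-fold 2.57%. The windows of 60 bases below show the match in capitals. They belong to the 4 most strongly changed named genes of these lists that hold one, with the genes of a chromosome left out of the choice. They are written 5′ to 3′ on the gene's strand: Asns, chr6:7693210-7693269 (minus strand), Aars, chr8:111033704-111033763 (plus strand), Chac1, chr2:119351023-119351082 (plus strand) and Got1, chr19:43524674-43524733 (minus strand). The match starts 23, 112, 193 and 102 bases before the start, in that order.
Asns: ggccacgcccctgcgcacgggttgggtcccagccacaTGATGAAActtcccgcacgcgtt
Aars: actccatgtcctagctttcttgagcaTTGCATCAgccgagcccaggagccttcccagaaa
Chac1: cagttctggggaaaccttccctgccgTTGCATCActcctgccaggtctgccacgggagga
Got1: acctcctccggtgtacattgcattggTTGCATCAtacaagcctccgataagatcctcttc

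The machinery that builds ribosomes fell almost as a block, while the ribosomal proteins did not. Of 88 ribosome biogenesis genes 78 were lowered and 1 raised (median -0.55), and 37 fell at least 1.5-fold. All rapamycin arrays lay below all vehicle arrays for 79 of them. Dkc1, the pseudouridine synthase of snoRNPs, read 824, 864 and 908 with vehicle and 361, 394 and 396 with rapamycin. Rrp12, Wdr12 and Lyar, nucleolar factors of subunit assembly, fell by 1.11, 1.08 and 1.02, and Nolc1, a nucleolar chaperone of snoRNPs, by 0.94. Rpf2 is the member called as raised (0.21), but 2 of its 4 probe sets fell, and the call was lost without vehicle replicate 1 (0.18) or 2 (0.17) or rapamycin replicate 1 (0.20) or 3 (0.21) and with scaling on the bacterial controls (0.020). Of 46 measured cytosolic ribosomal proteins, 7 rose (15.2%) and 3 fell (6.52%) in the authors' normalization. Over genes with a mean log2 value of 6 or more 15.1% rose and 24.5% fell, so the share of rises was near that of those genes. The count turned to 1 raised and 9 lowered with scaling on the bacterial controls, and 4 rose without vehicle replicate 1 or 2 or rapamycin replicate 3. Rpl22l1, a paralog of Rpl22, rose most (0.54, SE 0.06, adjusted p = 1.2e-05), Rpl37 rose by 0.29 and Rps20 by 0.26, while Rps27l, a paralog of Rps27, fell by 0.32 and Rpl14 by 0.29; the rises of Rpl37 (0.11) and Rps20 (0.075) were lost with that scaling. The 46 measured are those of 81 listed that had a probe set with 1 gene symbol.

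RNA polymerases I and III, which transcribe ribosomal RNA and tRNA, were lowered in part. For polymerase I and its factors, 11 of 18 fell and 0 rose, led by Polr1e (-0.75), Polr1a (-0.60) and Polr1b (-0.60), with Rrn3, the initiation factor that carries the growth signal to polymerase I, at -0.41. For polymerase III, 8 of 21 fell and 2 rose, and a pair of alternative subunits moved apart. Polr3g, typical of growing and stem cells, read 73.4, 83.3 and 78.3 with vehicle and 36.3, 48.3 and 47.6 with rapamycin (log2 change -0.84, SE 0.09, adjusted p = 2.3e-05). Polr3gl, its counterpart in differentiated cells, read 74.7, 76.3 and 73.1 with vehicle and 101, 122 and 90.6 with rapamycin (log2 change 0.47, SE 0.09, adjusted p = 0.0011). Both are dim genes with 1 probe set each, and in neither did the groups overlap. Gtf3a, which encodes the transcription factor TFIIIA, fell by 0.61.

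Translation genes followed. Of 41 translation factors 24 fell and 5 rose (3 without vehicle replicate 1 or rapamycin replicate 3); Eif2b4 (-0.65) and Eif2b3 (-0.58), subunits of the nucleotide exchange factor of eIF2, and Eef1e1, which belongs to the multi-synthetase complex (-0.74), fell, while Eef2, the translocation factor, rose by 0.24 (1 of 2 probe sets; 0.049 and not called with scaling on the bacterial controls) and Eif4g3, a scaffold, by 0.54 (1 of 4 probe sets). Cytosolic tRNA synthetases, the enzymes that charge tRNAs, were lowered in 20 of 21 cases (median -0.54). Farsb, for phenylalanine, read 974, 986 and 894 with vehicle and 493, 537 and 556 with rapamycin, and all 4 of its probe sets fell. Vars fell by 0.80, Aars by 0.65 and Cars by 0.62. Qars, for glutamine, was the remaining member: it read 1288, 1318 and 1165 with vehicle and 1593, 1709 and 1656 with rapamycin, a rise of 0.40 (SE 0.06, adjusted p = 2.9e-04) with 3 of 4 probe sets raised and no overlap. Mitochondrial synthetases had 6 of 16 lowered and 0 raised; Yars2 fell by 0.91. The difference between these lists was not tested.

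**Figure D2:**
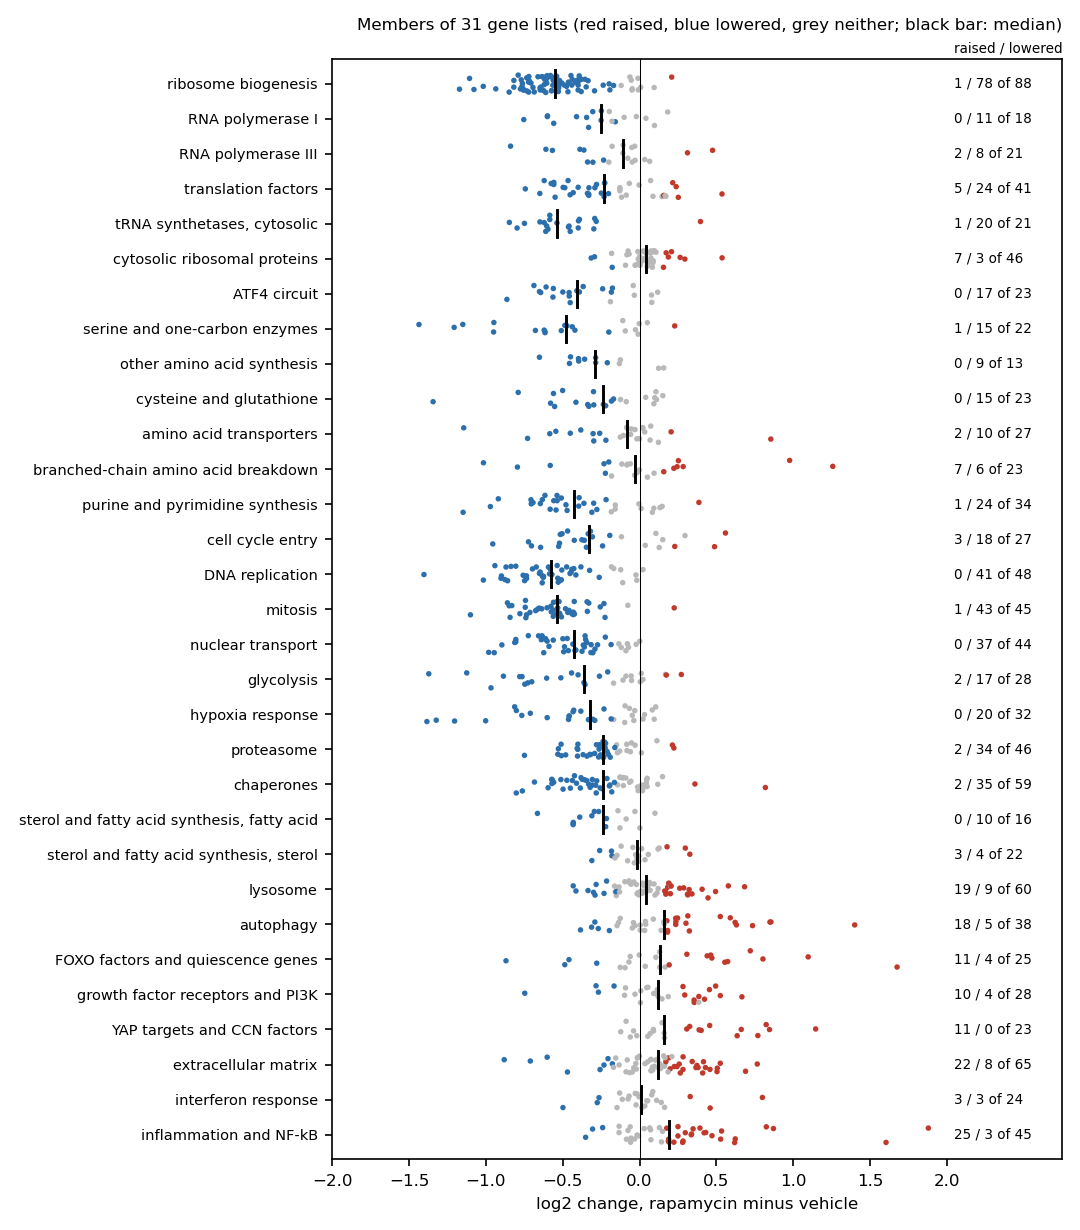
Each point is a measured member of 1 of 31 gene lists, placed by its log2 change (horizontal axis, rapamycin minus vehicle), red where raised, blue where lowered and grey where neither; the black bar is the median, and the numbers give members raised and lowered of those measured. Ribosome biogenesis has 78 of 88 members lowered and inflammation 25 of 45 raised, the latter 11 raised and 11 lowered with scaling on the bacterial controls.

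Nucleotide synthesis and the cell cycle were lowered. Of 15 purine genes 12 fell and 0 rose, with Pfas (-0.97), Atic (-0.71), Ppat (-0.65), the first committed step, and Gmps (-0.56), and of 19 genes of pyrimidine and deoxynucleotide synthesis 12 fell and 1 rose. Cad, the multifunctional enzyme that starts pyrimidine synthesis and is a substrate of S6 kinase, fell by 0.69 with all 3 probe sets. Of the thymidine kinases, Tk1, the cytosolic form made in S phase, read 1583, 1527 and 1524 with vehicle and 666, 693 and 732 with rapamycin, whereas Tk2, the mitochondrial form, read 72.2, 68.8 and 75.4 with vehicle and 95.5, 99.8 and 87.8 with rapamycin. Tk1 fell by 1.15 and Tk2 rose by 0.39 (adjusted p = 4.1e-04), each without overlap; with scaling on the bacterial controls the Tk2 call was lost (0.20). Rrm2, a subunit of ribonucleotide reductase, fell by 0.92.

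Of 48 DNA replication genes 41 fell and 0 rose (median -0.58). Cdc6, which loads the replicative helicase, read 339.9, 336 and 277 with vehicle and 113, 124 and 122 with rapamycin, a 2.65-fold fall (log2 change -1.40, SE 0.08, adjusted p = 1.3e-07). The kinase Cdc7 fell by 1.02, Orc2 of the origin recognition complex by 0.90, and the polymerase subunits Pole2 and Pold2 by 0.94 and 0.90. In the mitosis list 43 of 45 fell and 1 rose; Mybl2, which encodes B-MYB, fell by 1.10, the kinase Aurka by 0.86, Bub1 by 0.85 and cyclin A2 (Ccna2) by 0.84, and Pttg1, securin, was raised by its brightest probe set (0.23, 1 of 3), a call lost without rapamycin replicate 3 or vehicle replicate 3 (0.19 in both) and with scaling on the bacterial controls (0.036). Of 27 genes of cell cycle entry 18 fell and 3 rose. Ccne2, cyclin E2, fell by 0.96, Skp2, which targets the inhibitor p27 for degradation, by 0.64, and Rb1, the retinoblastoma protein, rose by 0.56 (1 of 2 probe sets). Inhibitors of cyclin-dependent kinases were among the falls: Cdkn2d, p19, fell by 0.70 and Cdkn1a, p21, by 0.31. RNA was pooled over all cells of a culture, so fewer cells in a phase of the cycle and less RNA per cell cannot be told apart.

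The site of E2F factors, which switch on S-phase genes, was searched as TTCNCGC and found in 13 of 40 (32.5%) promoters of DNA replication genes, 6 of 20 (30.0%) of cell cycle entry genes, 10.8% of all measured genes, 21.1% of genes lowered at least 1.5-fold and 9.20% of those raised as much. Median GC content was 60.4% in promoters of the genes lowered at least 1.5-fold and 57.6% both in those raised as much and in all measured genes. The windows shown belong to the most strongly lowered named genes with a match in these lists and in nucleotide synthesis, with the same chromosome left out. They are Cdc6, chr11:98907986-98908045 (plus strand) and Atic, chr1:71556969-71557028 (plus strand). The match lies 138 and 160 bases before the start, on the opposite strand.
Cdc6: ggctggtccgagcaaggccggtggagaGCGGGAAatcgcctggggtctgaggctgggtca
Atic: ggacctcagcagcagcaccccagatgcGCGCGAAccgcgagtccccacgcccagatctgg

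Glucose metabolism and genes of the hypoxia response fell together. Of 28 glycolysis genes 17 fell and 2 rose (median -0.36). Slc16a3, the lactate exporter MCT4, read 1082, 1002 and 1062 with vehicle and 389.8, 462 and 368 with rapamycin, a 2.59-fold fall (log2 change -1.37, SE 0.08, adjusted p = 1.5e-07). Phosphofructokinase fell in its platelet form Pfkp (-1.13) and its liver form Pfkl (-0.97), and so did Pfkfb3, which makes its activator (-0.78). The glucose transporter Slc2a1 fell by 0.89 with all 3 probe sets, hexokinase 2 (Hk2) by 0.77 and lactate dehydrogenase A (Ldha), one of the brightest genes of the list, by 0.73. Pyruvate dehydrogenase kinases, which close the entry of pyruvate into mitochondria, were called in opposite directions on the authors' scale: Pdk1 fell by 0.75 and Pdk2, a dim gene, rose by 0.27, a call lost with scaling on the bacterial controls (0.083). Of 7 genes of the pentose phosphate pathway, 3 fell and 1 rose, the latter being H6pd, the enzyme of the endoplasmic reticulum (0.56, SE 0.06, adjusted p = 1.2e-05), and the former Rpia (-0.55), Rpe (-0.53, with 1 of 3 probe sets raised) and Pgd (-0.32).

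Of 32 hypoxia response genes 20 fell and 0 rose, while Hif1a itself did not pass. Bnip3, a mitophagy receptor, read 1889, 2190 and 2104 with vehicle and 709, 882 and 782 with rapamycin, and Egln3, an oxygen-sensing prolyl hydroxylase, read 357, 373 and 359.8 with vehicle and 151, 169 and 154 with rapamycin. Their falls were 2.61-fold and 2.30-fold, without overlap. Higd1a, a mitochondrial survival factor, fell by 1.00 with all 3 probe sets, Ero1a, which makes disulphides in the endoplasmic reticulum, by 0.81, and the collagen prolyl hydroxylases P4ha1 and P4ha2 by 0.71 and 0.60.

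The core of the hypoxia response element, ACGTG, which also lies inside the E-box CACGTG, was found in 12 of 27 (44.4%) promoters of the hypoxia list and 12 of 25 (48.0%) of glycolysis, against 19.8% of all measured genes. Of genes lowered at least 1.5-fold 25.4% held it, and of those raised as much 17.2%. Other lists matched about as often, among them clock genes (62.5%) and immediate early genes and ERK feedback (41.7%). The windows shown belong to the most strongly lowered named genes with a match in the hypoxia and glycolysis lists and in the TSC, Rheb and amino acid sensing list, which holds Ddit4. The same chromosome was left out. They are Ddit4, chr10:59951926-59951985 (minus strand), Bnip3, chr7:138909582-138909641 (minus strand) and Slc16a3, chr11:120949007-120949066 (plus strand). Their matches start 187 bases before the start in Ddit4, 108 and 107 in Bnip3, where an E-box is read on both strands, and 27 and 14 in Slc16a3.
Ddit4: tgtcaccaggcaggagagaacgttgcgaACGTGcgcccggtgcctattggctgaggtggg
Bnip3: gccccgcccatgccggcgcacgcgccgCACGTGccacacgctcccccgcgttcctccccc
Slc16a3: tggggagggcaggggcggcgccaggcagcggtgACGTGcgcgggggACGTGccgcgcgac

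**Figure D3:**
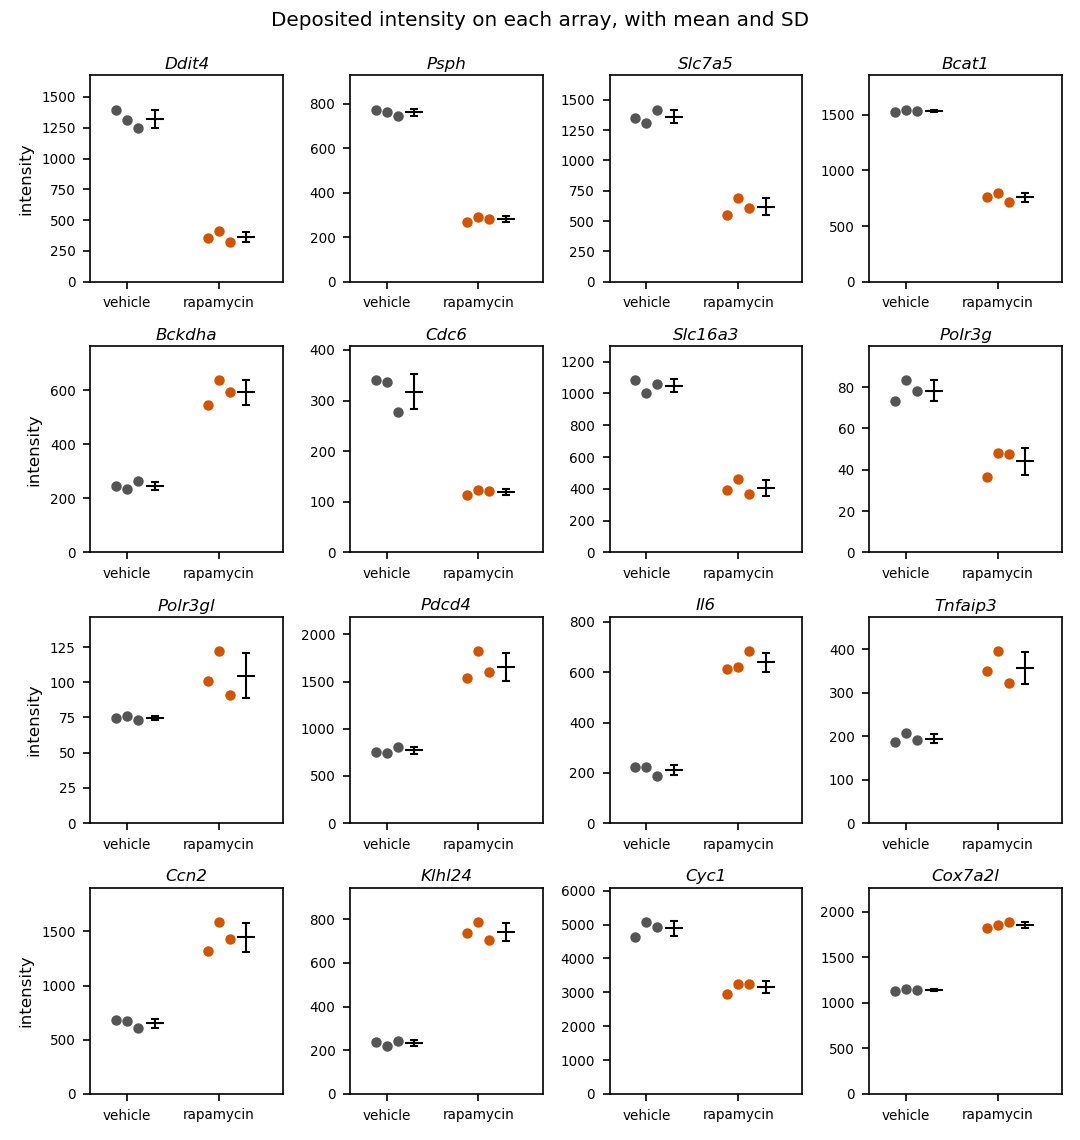
Each panel shows the deposited intensity of 1 gene (vertical axis, linear, from 0) on the 3 vehicle arrays (grey) and the 3 rapamycin arrays (orange), with mean and SD as a bar beside them. The groups do not overlap in any of the 16 panels; Slc16a3 lies at 1002 to 1082 with vehicle and 368 to 462 with rapamycin.

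Mitochondrial genes, the subject of the study's title, did not move as one. The mitochondrial ribosome fell: 31 of 47 large subunit and 24 of 30 small subunit proteins were lowered, with medians of -0.33 and -0.31, and 2 were raised. Mrps22 read 956, 988 and 873 with vehicle and 497, 534 and 538 with rapamycin, and Mrpl45 fell by 0.80 and Mrpl12 by 0.75. Mrpl23 rose by 0.31, but not with scaling on the bacterial controls (0.12), where 0 members of the mitochondrial ribosome rose. Import and quality control had 30 of 42 members lowered and 2 raised (median -0.36). Timm8a1, a small chaperone of the intermembrane space, read 1301, 1309 and 1234 with vehicle and 554, 658 and 601 with rapamycin, and the protease Lonp1 and the import pore Tomm40 fell by 0.65 and 0.65. Oma1, a stress-activated protease of the inner membrane, rose: it read 228, 223 and 209 with vehicle and 355, 372 and 338 with rapamycin (log2 change 0.69, SE 0.06, adjusted p = 2.7e-06). Genes of mitochondrial DNA and its expression fell in 15 of 28 cases and rose in 2, among them Pnpt1, an RNA-processing phosphorylase (-0.77), the elongation factor Gfm1 (-0.66) and Lrpprc, which stabilizes mitochondrial mRNAs (-0.52).

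Subunits of oxidative phosphorylation had calls in both directions on the authors' scale. Of 78 measured, 14 rose (17.9%) and 18 fell (23.1%), with a median of 0.00. Over all genes 11.4% rose and 17.9% fell, and over those with a mean log2 value of 6 or more 15.1% and 24.5%. With scaling on the bacterial controls 1 rose and 38 fell, and with quantile normalization over the 6 arrays 21 rose and 17 fell. The count of rises moved with single arrays, to 9 without vehicle replicate 1, 8 without 2, 9 without 3, and 9 and 7 without rapamycin replicate 2 or 3. By complex, 8 rose and 9 fell of 34 in complex I (4 or 5 rose without the same arrays, and without rapamycin replicate 1 the rises led by 2), 1 and 5 of 14 in complexes II and III with cytochrome c, 3 and 0 of 14 in complex IV and 2 and 4 of 16 in ATP synthase. Cyc1, cytochrome c1, fell most, reading 4634, 5079 and 4942 with vehicle and 2943, 3251 and 3252 with rapamycin (log2 change -0.63, SE 0.06, adjusted p = 6.5e-06). Cox7a2l, a factor that joins complexes III and IV, rose most, reading 1125, 1150 and 1140 with vehicle and 1820, 1854 and 1887 with rapamycin (log2 change 0.70, SE 0.05, adjusted p = 8.7e-07), and all 3 of its probe sets rose. Neither gene's groups overlapped. In complex I, Ndufa1 (0.29) and Ndufa7 (0.28, 5 of 5 probe sets) rose and Ndufab1 (-0.35), the acyl carrier protein, and Ndufs8 (-0.32) fell, although 1 of 5 Ndufab1 probe sets rose. In ATP synthase, Atp5g1, a subunit of the proton-turned ring, fell by 0.49, while the small subunit Atp5e (0.30) and the inhibitor Atpif1 (0.32, 1 of 3 probe sets) rose. With scaling on the bacterial controls the calls of Ndufa1 (0.10), Ndufa7 (0.093), Atp5e (0.11) and Atpif1 (0.13) were lost. Sdhd, the membrane anchor of complex II, fell by 0.42. Genes encoded by mitochondrial DNA were not analysed here.

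Factors that assemble these complexes fell more than they rose, with 18 of 40 lowered and 4 raised. Ndufaf6 and Ndufaf4, of complex I, fell by 0.86 and 0.74, Cox10, which makes heme A for complex IV, by 0.70, and Sdhaf4, of complex II, rose by 0.41. In the tricarboxylic acid cycle 12 of 21 fell and 1 rose; Idh3a fell by 0.71, Pdhx, a binding protein of pyruvate dehydrogenase, by 0.59, Ogdh by 0.55 and citrate synthase (Cs) by 0.36. Of 28 fatty acid oxidation genes 4 rose and 4 fell, shares (14.3% each) near those of all genes (11.4% and 17.9%), and the count depended on the scale: 1 rose and 12 fell with scaling on the bacterial controls, and 10 rose and 2 fell with quantile normalization. Decr1, needed for unsaturated fatty acids (0.42), and Ech1 (0.39; 0.20 and not called with scaling on the bacterial controls) rose and Acsl5, an acyl-CoA synthetase, fell by 0.48.

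**Figure D4:**
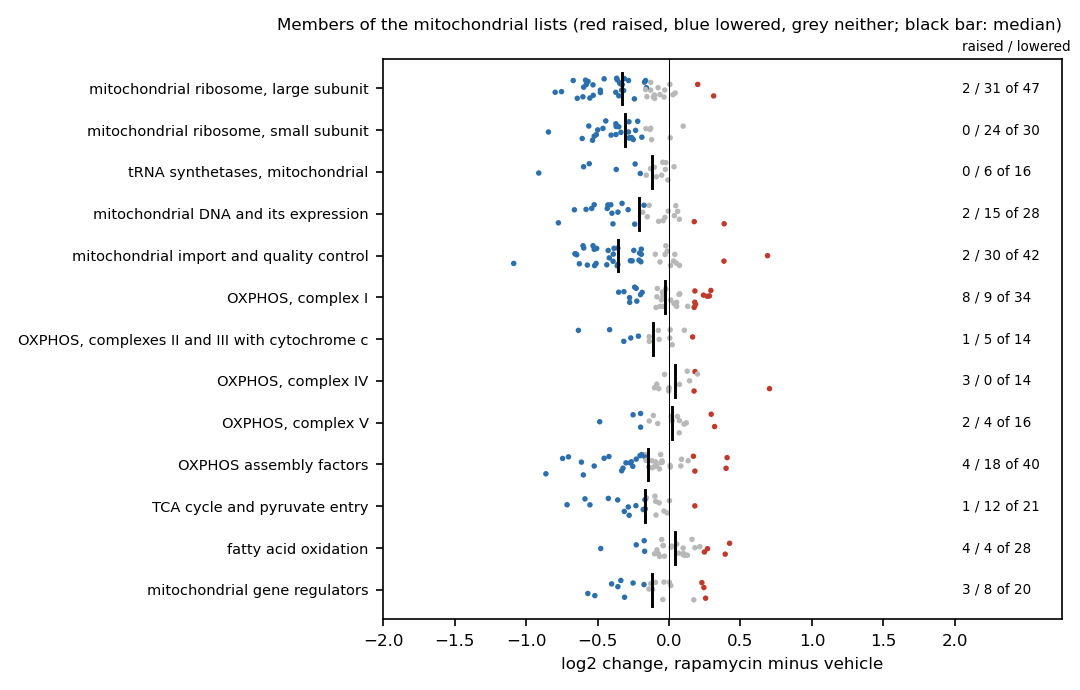
Each point is a measured member of a mitochondrial list, split by role, placed by its log2 change (horizontal axis, rapamycin minus vehicle), red where raised, blue where lowered and grey where neither, with the median as a black bar and counts at the right. The mitochondrial ribosome has 31 of 47 and 24 of 30 members lowered, complex I 8 raised and 9 lowered of 34, and complex IV 3 raised and 0 lowered of 14; with scaling on the bacterial controls complex I has 0 raised and 18 lowered and complex IV 1 and 4.

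Of 20 regulators of mitochondrial genes 3 rose and 8 fell (0 and 14 with scaling on the bacterial controls). The genes of the PGC-1 family were called as lowered, with limits given below for Ppargc1a and Ppargc1b. Ppargc1a, which encodes PGC-1alpha, read 62.2, 64.8 and 63.4 with vehicle and 48.6, 49.1 and 55.9 with rapamycin (log2 change -0.31, SE 0.06, adjusted p = 0.0022) with 3 of 5 probe sets lowered. Ppargc1b was at -0.18 (SE 0.06, adjusted p = 0.049), and Pprc1 read 679.9, 670.2 and 662 with vehicle and 449.7, 499 and 457 with rapamycin (log2 change -0.52). In each of these genes the groups did not overlap, but the Ppargc1b call was lost without vehicle replicate 1 (-0.18), 2 (-0.20) or 3 (-0.14) or rapamycin replicate 1 (-0.13) or 3 (-0.20), with quantile normalization (-0.14) and with array weights (-0.14). Ppargc1a is dim here: its 3 rapamycin arrays read under 64, the intensity at a log2 value of 6, under which a signal may not differ from background. Yy1, the factor of the title, did not pass by its brightest probe set (1652, 1739 and 1693 with vehicle and 1521, 1643 and 1532 with rapamycin, log2 change -0.11, 95% interval -0.23 to 0.01), but its other 3 probe sets fell by 0.56, 0.48 and 0.43. Among partners, Gabpb1, a subunit of the ETS factor NRF2, fell by 0.57 with both probe sets, while its DNA-binding subunit Gabpa did not pass (0.17), Nrf1 fell by 0.40 (2 of 4 probe sets), and Esrra did not pass (-0.04, 95% interval -0.15 to 0.08). Tfam, which packages and transcribes mitochondrial DNA, fell by 0.36 with both probe sets. The nuclear receptors Ppard and Pparg fell by 0.34 and 0.25, and Creb1 (0.26, 1 of 6 probe sets) and the deacetylase Sirt1 (0.24) rose, but both calls were lost with that scaling (0.067 and 0.055), and that of Sirt1 also without rapamycin replicate 3 (0.19) or vehicle replicate 3 (0.16).

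Sites of these factors were counted in the same promoter windows. The YY1 site AAGATGGC was found in 0 of 65 promoters of oxidative phosphorylation, 4 of 67 (5.97%) of the mitochondrial ribosome and 1.77% of all measured genes; bases after the start were not searched. The NRF1 site, GCGCA and GCGC with any base between them, was found in 11 of 65 (16.9%) oxidative phosphorylation promoters, 6 of 35 (17.1%) of import and quality control and 6.38% of all measured genes, and the ERR site AAGGTCA in 6 of 65 (9.23%) and 3.46%. Among genes lowered at least 1.5-fold, 13.1% held the NRF1 site and 20.8% the ETS site CCGGAAG, against 6.13% and 9.20% of those raised as much and 6.38% and 10.6% of all measured genes. The CCAAT box, bound by NF-Y, was found in 26 of 36 (72.2%) mitosis promoters and 35.7% of all measured genes. Its share was also high in sterol and fatty acid synthesis (77.4%), clock genes (68.8%) and branched-chain amino acid breakdown (66.7%). Of genes lowered at least 1.5-fold 44.5% held it, and of those raised as much 41.1%. These shares are descriptions, and the windows of the lists differ in GC content.

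**Figure D5:**
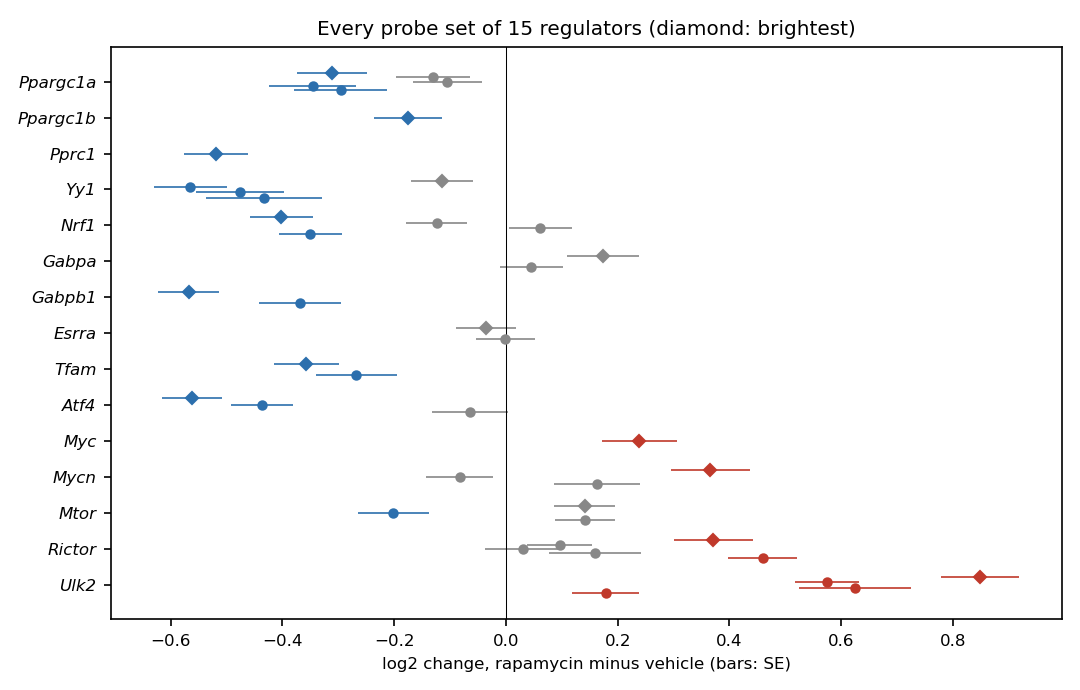
Every probe set of 15 regulators is placed by its log2 change with its SE (horizontal axis, rapamycin minus vehicle), the brightest as a diamond, red where raised, blue where lowered and grey where neither. The brightest Yy1 probe set lies at -0.11 and the other 3 at -0.43 to -0.56, and the 3 Mtor probe sets lie at 0.14, -0.20 and 0.14.

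The Myc network, which drives ribosome and nucleotide genes, had rises among its activators and its repressors. Of 15 members 6 rose and 3 fell (2 and 7 with scaling on the bacterial controls). Myc read 1082, 1002 and 941 with vehicle and 1128, 1279 and 1160 with rapamycin, a rise of 0.24 (SE 0.07, adjusted p = 0.018) with no overlap, a call that was lost without rapamycin replicate 2 (0.19), vehicle replicate 2 (0.24) or vehicle replicate 3 (0.19) and with scaling on the bacterial controls (0.050). Mycn rose by 0.37 (1 of 3 probe sets). Mxd4, a repressor that competes with Myc for the partner Max, read 149, 159 and 154 with vehicle and 258, 282 and 266 with rapamycin, a 1.74-fold rise with 3 of 4 probe sets raised. Mnt, another repressor, rose by 0.48 (1 of 2 probe sets) and Mga by 0.37 (1 of 5); with that scaling the calls of Mycn (0.18) and Mga (0.18) were lost. In the glucose-sensing branch, Mlx fell by 0.38, and the arrestins Txnip and Arrdc4, its targets, fell by 0.28 and 0.49 with both probe sets each.

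Protein folding, degradation and nuclear transport were lowered. Of 46 proteasome genes 34 fell and 2 rose, with small changes (median -0.24); Psme3, an activator, fell most (-0.75) and Psmd14, a deubiquitinase of the lid, fell by 0.53. Of 33 cytosolic chaperones 23 fell and 1 rose: Hsph1 read 1079, 1053 and 1004 with vehicle and 585, 598 and 615 with rapamycin, and Pfdn5, a prefoldin subunit that binds Myc, rose by 0.36 with 4 of 5 probe sets, a call lost with scaling on the bacterial controls (0.17). Of 26 folding genes of the endoplasmic reticulum 12 fell, with Dnajb11 at -0.68, and Dnajb9, a cochaperone of BiP, rose, reading 353, 355 and 389 with vehicle and 592, 701 and 646 with rapamycin, a 1.76-fold difference without overlap. Nuclear transport had 37 of 44 members lowered and 0 raised (median -0.43), among them the pore proteins Nup85 (-0.98) and Ndc1 (-0.95) and Rcc1, the exchange factor of Ran (-0.90).

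Lipid synthesis fell in its fatty acid branch. There 10 of 16 genes fell and 0 rose, with Elovl6, an elongase (-0.67), acetyl-CoA carboxylase (Acaca, -0.43) and fatty acid synthase (Fasn, -0.43), and their regulator Srebf1 at -0.27. The sterol branch had 3 raised and 4 lowered of 22 (13.6% and 18.2%), near the shares of all genes (11.4% and 17.9%). Tm7sf2 (0.33) and Fdft1 (0.30) were raised and Sc5d (-0.31) lowered. The counts turned to 0 and 12 with scaling on the bacterial controls and to 5 and 2 with quantile normalization. On the bacterial controls the calls of Tm7sf2 (0.14) and Fdft1 (0.11) were lost. Iron genes had 3 raised and 9 lowered of 24 (2 and 14 with scaling on the bacterial controls). Tfrc, the transferrin receptor, read 3126, 3263 and 3062 with vehicle and 1376, 1520 and 1550 with rapamycin, a 2.13-fold fall (log2 change -1.09, SE 0.06, adjusted p = 1.3e-07). Its control probe sets on the same arrays, which were not among those tested, gave log2 changes of -1.19, -1.11 and -1.30 at the 3′ end, the middle and the 5′ end of the transcript.

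Genes of autophagy and the lysosome rose more often than they fell. Of 38 autophagy genes 18 rose and 5 fell, with a median of 0.16, which turned to -0.03 (8 raised and 11 lowered) with scaling on the bacterial controls. Nbr1, a cargo receptor, read 890.4, 864 and 896 with vehicle and 1558, 1678 and 1560 with rapamycin, and Map1lc3b, which coats the autophagosome membrane, read 1946, 2065 and 2020 with vehicle and 2924, 3177 and 3240 with rapamycin. Both were raised without overlap, by 0.86 and 0.63. Wipi1, which binds the lipid of the forming membrane, rose by 0.74 with all 6 probe sets, and Uvrag fell by 0.38. Of 45 lysosomal hydrolases and membrane proteins 17 rose and 6 fell. Of 15 subunits of the proton pump 2 rose and 3 fell (13.3% and 20.0%), near the shares of all genes (11.4% and 17.9%). With scaling on the bacterial controls these were 5 and 12, and 0 and 10, and without vehicle replicate 2 or rapamycin replicate 2 there were 11 raised hydrolases and membrane proteins. The protease Ctso (0.68), arylsulfatase A (Arsa, 0.58) and Naglu (0.49) rose, the galactosidase Gla (-0.41) and the pump subunit Atp6v1c1 (-0.43) fell. The E-box CACGTG, the core of the element bound by TFEB, was found in 15 of 50 (30.0%) lysosome promoters and 7.57% of all measured genes.

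FOXO factors, which are held in the cytoplasm by AKT, and genes of quiescence had 11 of 25 members raised and 4 lowered (9 and 8 with scaling on the bacterial controls). Klhl24 read 236, 219 and 242 with vehicle and 736, 788 and 706 with rapamycin. Hbp1, a repressor of the cell cycle, read 683, 752 and 777 with vehicle and 1527, 1628 and 1571 with rapamycin, and all 4 of its probe sets rose. Both genes' groups stood far apart. Ccng2, cyclin G2, rose by 0.72, whereas Tob2, an antiproliferative gene of the same list, fell by 0.87 (3 of 5 probe sets). Growth factor receptors and PI3K genes had 10 raised and 4 lowered of 28 (5 and 7 with that scaling). Pdgfrb read 214, 226 and 225 with vehicle and 344, 357 and 354 with rapamycin, Pdgfra rose by 0.50 and Igf1r by 0.53 (4 of 5 probe sets), and Pik3r3, a regulatory subunit of PI3K, fell by 0.75. Of 13 IGF system genes 3 rose and 0 fell (2 and 4 with that scaling): Pappa, a protease that frees IGF from its binding proteins, read 297, 338 and 329 with vehicle and 585, 566 and 599 with rapamycin, with all 3 probe sets raised, and the binding proteins Igfbp7 and Igfbp3 rose by 0.65 and 0.30, the latter not called with that scaling (0.11).

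Inflammatory genes rose. Of 45 measured, 25 rose and 3 fell, and 6 rose at least 1.5-fold, although with scaling on the bacterial controls 11 rose and 11 fell. Il6, the cytokine interleukin-6, read 222, 222 and 188 with vehicle and 612, 622 and 684 with rapamycin, a 3.04-fold rise (log2 change 1.60, SE 0.07, adjusted p = 3.7e-08). Ptgs2, which encodes the prostaglandin enzyme COX-2, read 231, 241 and 192 with vehicle and 404, 396 and 370.2 with rapamycin. The chemokine Ccl2 rose by 0.62 and the acute phase protein Saa3, already among the brightest transcripts, from 7074, 6875 and 7695 to 10367, 10526 and 10403. None of these overlapped between groups. NF-kB factors and their feedback inhibitors had 12 of 19 members raised and 2 lowered: Tnfaip3, the deubiquitinase A20, read 186, 207 and 189.9 with vehicle and 350.4, 395 and 322 with rapamycin, and Relb rose by 0.62, Tnip1 by 0.43 and Nfkbia, the inhibitor IkB-alpha, by 0.42 (4 of 5 probe sets). Nfkbib fell by 0.31, as did the interferon-induced chemokine Cxcl10 (-0.35). The interferon response list had 3 raised and 3 lowered of 24 (12.5% each, near the shares of all genes; 2 and 10 with scaling on the bacterial controls), with Gbp2 raised (0.80) and Ifit1 lowered (-0.50). Macrophage markers had 2 of 12 raised, Cd68 (0.29, lost without vehicle replicate 2 or 3 or rapamycin replicate 1 or 3, at 0.24 to 0.26, and at 0.097 with scaling on the bacterial controls) and Cd14 (0.19, lost without vehicle replicate 1, at 0.17, and at 0.0053 with that scaling), and their summed intensity ran from 1050 to 1094 with vehicle and from 1114 to 1141 with rapamycin; their part in the result was not tested.

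The kappaB site, bound by NF-kB, was searched as GGG, any 2 bases, TT, any base and CC. It was found in 10 of 35 (28.6%) promoters of this list and in 4.50% of all measured genes. Of genes raised at least 1.5-fold 6.13% held it, and of those lowered as much 6.43%. The windows shown, of a cytokine and of feedback inhibitors, are Il6, chr5:30013045-30013104 (plus strand), Tnfaip3, chr10:19015411-19015470 (minus strand) and Nfkbia, chr12:55492648-55492707 (minus strand), with the match starting 44, 12 and 29 bases before the start.
Il6: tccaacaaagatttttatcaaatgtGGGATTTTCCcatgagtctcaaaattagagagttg
Tnfaip3: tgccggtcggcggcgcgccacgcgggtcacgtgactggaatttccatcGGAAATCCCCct
Nfkbia: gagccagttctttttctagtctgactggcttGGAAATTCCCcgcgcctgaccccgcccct

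Secreted and matrix genes rose in part. Of 23 YAP targets and CCN factors 11 rose and 0 fell (8 and 5 with scaling on the bacterial controls). Ccn2, connective tissue growth factor, read 685, 669 and 605 with vehicle and 1320, 1588 and 1434 with rapamycin, a 2.21-fold rise (log2 change 1.15, SE 0.07, adjusted p = 3.7e-07), and Ccn1 rose by 0.85 with all 4 probe sets, Ccn3 by 0.77 and endothelin 1 (Edn1) by 0.82. Extracellular matrix had 22 of 65 raised and 8 lowered (9 and 19 with that scaling), with Mmp11 (0.77), Col11a1 (0.69) and biglycan (Bgn, 0.50, 3 of 3 probe sets) raised. Adamts1, a protease of proteoglycans, fell: it read 309.6, 297 and 274 with vehicle and 136, 176 and 168 with rapamycin. Col6a3 fell by 0.47. Immediate early genes and ERK feedback had 12 raised and 6 lowered of 33 (4 and 12 with that scaling). The AP-1 subunits Fosl1 and Jun fell by 0.92 and 0.51, and Egr1 and the feedback inhibitor Spry2 rose by 0.48 and 0.49.

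Non-coding RNAs changed in both directions. Snhg3 and Snhg1, host transcripts of snoRNAs, fell: Snhg3 read 360.4, 346 and 291 with vehicle and 142, 153 and 149 with rapamycin and all 5 probe sets of Snhg1 fell (brightest -0.65). The nuclear RNAs Malat1 and Neat1 (0.79, 1 of 2 probe sets) and the imprinted Meg3 rose. Malat1 read 658, 785 and 719.6 with vehicle and 1756, 1397 and 1431 with rapamycin, and its 7 probe sets rose by 0.20 to 1.25; Meg3 read 669, 671 and 671 with vehicle and 1400, 1484 and 1418 with rapamycin, and 9 of its 11 probe sets rose. The vehicle and rapamycin arrays did not overlap for Snhg3, Malat1 or Meg3. Clock genes had 3 raised and 6 lowered of 18 (16.7% and 33.3%). Genes with a mean log2 value of 6 or more had 15.1% raised and 24.5% lowered. With scaling on the bacterial controls 1 clock gene rose and 12 fell. Cry1 (-0.64), Ciart (-0.50) and Arntl (-0.46) fell and Nr1d2 (0.55) rose. Of 25 genes of the p53 and BCL2 families 9 fell and 2 rose (14 and 2 with that scaling), with the pro-apoptotic Bak1 (-0.53) lowered and Trp53inp1 (0.71) and the caspase-8 inhibitor Cflar (0.57) raised.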

How the data were processed

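The deposited values are RMA intensities on a linear scale, made by the authors with BioConductor 1.2 and default settings in 1 batch for these 6 Mouse Genome 430 2.0 arrays, per the series design text. RMA subtracts background, quantile-normalizes the arrays to each other and sums the probes of a probe set, so differences in total RNA between groups are removed. The log2 of each intensity was taken with no pseudocount and tested with limma 3.58.1 (lmFit and eBayes, group as the only term, R 4.3.3), with Benjamini-Hochberg adjustment over 45037 probe sets; 64 control probe sets were left out. The test was tried on simulated data first.

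A gene is its brightest probe set over the 6 arrays among the 34945 with 1 symbol (932 had several and 9160 none). Named genes are the 15 largest rises and falls and up to 5 members of each of 57 lists by size of change, with all regulators and mTOR genes. Members and lists were chosen with earlier results of these data known. Motifs were searched in RefSeq promoters (GRCm38.p6), and the genes of 1 chromosome were passed over when the windows to show were chosen. Alternatives were the replicate block, scaling on the bacterial controls, quantile normalization, a filter on dim probe sets, log2(intensity + 16), trend and robust moderation, array weights, another gene call and leaving out each array.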

Additional observations from a re-analysis of the deposited data

Results flagged for a closer look

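The bacterial control transcripts, which lie outside the tested probe sets and served only as an alternative scale, gave signal that was higher on the rapamycin arrays: their mean log2 value was 10.719 with rapamycin and 10.53 with vehicle. All 18 of their probe sets had the higher mean with rapamycin, and for 13 the groups did not overlap. The cause was not tested.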

How the results depend on the processing

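Every alternative was run. Scaling on the bacterial controls gave 1448 probe sets raised and 18556 lowered (201 and 2195 at least 1.5-fold) and 616 genes raised and 8373 lowered; under the other alternatives these counts stayed within 1.5 times their values. Leaving out 1 array gave 3947 to 5002 probe sets raised and 5148 to 6691 lowered, 520 to 597 and 687 to 978 of them at least 1.5-fold, and 1603 to 1953 genes raised and 2722 to 3513 lowered. Members raised minus members lowered changed sign with scaling on the bacterial controls for growth factor receptors (-2), the IGF system (-2), branched-chain amino acid breakdown (-10), cytosolic ribosomal proteins (-8, with -4 in each subunit), the Myc network (-5), autophagy (-3), the lysosome (-17, hydrolases -7), immediate early genes (-8), extracellular matrix (-10, collagens -6, glycoproteins -4), fibroblast (-1) and macrophage markers (-4), complex IV (-3) and NF-kB factors (-1). It did so with quantile normalization for oxidative phosphorylation (4), complex I (4) and sterol synthesis (3), with array weights for branched-chain amino acid breakdown (-1), and with a call by most of a gene's probe sets for the Myc network (-2) and complex I (2). With single arrays left out it ranged from -2 to 1 for mTOR complexes, -1 to 1 for branched-chain amino acid breakdown, -1 to 1 for small subunit ribosomal proteins, -5 to 2 for complex I and -3 to 1 for sterol synthesis. Gabpa, Hif1a and Mtor, which were not called, turned to -0.016, -0.11 and -0.048 with scaling on the bacterial controls. Of 264 called genes named, 32 lost the call under some alternative, 30 of them, all rises, with that scaling, and 0 changed sign. The cause was not tested. Replicate numbers did not pair the arrays: deviations of same-numbered arrays correlated at -0.05, 0.07 and 0.01, and with the replicate block 5128 probe sets rose and 6243 fell (2051 and 3219 genes). Probe sets under a mean log2 value of 6 may not differ from background, and 3 arrays a group limit the precision.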
